A study of Mus musculus with 16 samples.

Results

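The 27 genes described here code for the enzymes that build cholesterol from acetyl-CoA and for the proteins that set the activity of SREBP2, the transcription factor that controls those enzymes. They were taken by name from the pathway and not by a threshold on measured values, although earlier results of these data were known, out of 54193 mouse genes with transcripts in the reference, and all 27 passed the filter on low counts, which 14838 genes passed. They fall into 8 genes of the mevalonate steps (Acat2, Hmgcs1, Mvk, Pmvk, Mvd, Idi1, Fdps and Ggps1), 3 genes from squalene to lanosterol (Fdft1, Sqle and Lss), 8 genes from lanosterol to cholesterol (Cyp51, Tm7sf2, Msmo1, Nsdhl, Hsd17b7, Ebp, Sc5d and Dhcr7), 6 genes of SREBP2 control (Srebf2, Scap, Insig1, Insig2, Mbtps1 and Mbtps2) and 2 genes of sterol transport and esterification (Stard4 and Soat1).

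The series holds bulk RNA sequencing of primary brain microvascular endothelial cells of mice aged 8 to 10 weeks, the cells that line brain capillaries, selected in culture with puromycin, in a study of cerebral cavernous malformation, a vascular disease caused by loss of a CCM gene from the endothelium. All cells carried floxed Pdcd10 (Pdcd10 fl/fl), the gene also called Ccm3, and a Cdh5(PAC)-CreERT2 transgene, a tamoxifen-activated Cre recombinase driven by an endothelial promoter. WT cells were not exposed to 4-hydroxytamoxifen and KO cells were, so the effect of the recombined gene and that of 4-hydroxytamoxifen cannot be told apart. Cells were left untreated or received 10 µM propranolol (P), a beta-adrenergic receptor blocker, or 100 nM rapamycin (R), an inhibitor of the kinase mTOR, for 24 h. This gave 6 groups, with 3 libraries of untreated WT, 2 of WT+P, 2 of WT+R, 3 of untreated KO, 3 of KO+P and 3 of KO+R, from cultures that were each made from pooled brains.

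Cholesterol synthesis starts with the condensation of acetyl-CoA units, passes through mevalonate and the isoprenoid farnesyl pyrophosphate, and reaches squalene, lanosterol and finally cholesterol. The SREBP2 precursor sits in the endoplasmic reticulum with its escort SCAP. When sterol is plentiful INSIG proteins hold the pair there. When sterol in that membrane falls the pair moves to the Golgi, where the proteases coded by Mbtps1 and Mbtps2 release the active factor, which enters the nucleus and binds sterol regulatory elements, usually beside sites for NF-Y and Sp1. Most genes of the pathway, and Srebf2 and Insig1 themselves, are known targets of the factor. Brain capillary endothelium seals the brain from blood lipoproteins, and brain cholesterol is largely made on site.

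The start regions of genes whose RNA moved in the comparisons described further on are shown with the letters that SREBP2 and NF-Y are known to read. RefSeq windows reaching 250 bases before and 50 bases after a start site were found for 23 of the 27 genes, with no entry for Fdps, Fdft1, Sqle and Stard4. The sterol regulatory element was searched as TCACNCCAC and, more loosely, as TCACNCNA, and the NF-Y box as CCAAT, each on both strands. The strict element overlaps the loose one wherever it occurs. It stood in 1 of 23 genes, Hmgcs1, beside 1.44% of the windows of all 27025 genes in the table. The loose element stood in 4 (Hmgcs1, Msmo1, Nsdhl and Srebf2), beside 12.5% of all genes, and all 4 also held CCAAT, a pair found in 5.52% of all genes. CCAAT alone stood in 19 of 23, beside 41.1% of all genes and 42.7% of the 10742 tested genes that had a window. The Sp1 box, searched as GGGCGG, stood in 20 of 23, beside 38.2% of all genes and 68.2% of the tested ones. These matches are letters in a window and not measured binding.

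The 180 bases before the start site are shown 5′ to 3′ on the gene's strand, from RefSeq on build GRCm38.p6, an older mouse build than the GRCm39 of the study. Capitals mark the loose or strict sterol regulatory element and CCAAT, or ATTGG where CCAAT lies on the other strand. Hmgcs1, Msmo1 and Srebf2 are shown as the members with both kinds of letters among those that propranolol moved, and Cyp51 and Insig1 for the largest differences. Idi1 is shown as one of several genes with opposite differences under the 2 drugs, and Mbtps1 as a gene with neither kind of letters.
Hmgcs1 (chr13:119690171-119690350, plus strand): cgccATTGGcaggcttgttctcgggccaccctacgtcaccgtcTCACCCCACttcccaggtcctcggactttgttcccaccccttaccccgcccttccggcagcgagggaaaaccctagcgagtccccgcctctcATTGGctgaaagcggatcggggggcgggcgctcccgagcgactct
Msmo1 (chr8:64733579-64733758, minus strand): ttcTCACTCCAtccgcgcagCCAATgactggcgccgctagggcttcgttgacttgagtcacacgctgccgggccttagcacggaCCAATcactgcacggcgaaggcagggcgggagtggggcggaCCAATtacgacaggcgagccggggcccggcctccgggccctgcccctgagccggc
Srebf2 (chr15:82147089-82147268, plus strand): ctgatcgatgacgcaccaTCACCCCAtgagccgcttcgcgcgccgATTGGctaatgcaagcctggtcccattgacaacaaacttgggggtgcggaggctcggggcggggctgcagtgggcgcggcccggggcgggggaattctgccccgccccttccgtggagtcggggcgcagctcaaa
Cyp51 (chr5:4104698-4104877, minus strand): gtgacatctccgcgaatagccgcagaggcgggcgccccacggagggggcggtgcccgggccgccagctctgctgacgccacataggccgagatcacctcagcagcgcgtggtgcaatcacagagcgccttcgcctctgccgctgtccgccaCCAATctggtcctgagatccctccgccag
Insig1 (chr5:28071232-28071411, plus strand): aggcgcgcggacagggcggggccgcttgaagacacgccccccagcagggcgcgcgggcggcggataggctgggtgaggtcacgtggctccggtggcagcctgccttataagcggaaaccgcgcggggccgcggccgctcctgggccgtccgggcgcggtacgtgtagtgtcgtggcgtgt
Idi1 (chr13:8885426-8885605, plus strand): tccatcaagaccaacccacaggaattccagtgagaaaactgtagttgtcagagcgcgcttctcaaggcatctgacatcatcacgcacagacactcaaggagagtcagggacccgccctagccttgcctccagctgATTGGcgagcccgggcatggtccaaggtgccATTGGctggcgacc
Mbtps1 (chr8:119558762-119558941, minus strand): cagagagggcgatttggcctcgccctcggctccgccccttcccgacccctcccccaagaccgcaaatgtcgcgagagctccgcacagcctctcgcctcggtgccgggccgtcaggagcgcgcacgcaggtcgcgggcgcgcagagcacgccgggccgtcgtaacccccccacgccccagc
The strict element of Hmgcs1 lay at bases -137 to -129 from the start site, the loose one of Msmo1 at -177 to -170 and that of Srebf2 at -162 to -155. The CCAAT of Insig1 lay at -216 to -212, upstream of the bases shown.

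Libraries held between 18830503 and 26203339 counts in all, and the scaling factors between libraries ran from 0.934 to 1.04. Pdcd10, the targeted gene, was measured at 9.72, 10.97 and 9.73 counts per 1000000 (CPM) in the KO libraries, 13.1 to 16.7 in KO+P and 7.83 to 9.53 in KO+R. The library labelled WT replicate 1 held 11.5 CPM, just above the untreated KO libraries and within the range of the KO, KO+P and KO+R libraries together, whereas the other two WT libraries held 31.2 and 47.0, and the WT+P and WT+R libraries 27.7 to 60.8. Between KO and WT its log2 difference was -1.56 (SE 0.40, adjusted p = 0.42). Comparisons of KO, WT+P and WT+R with untreated WT are therefore also given without the library labelled WT replicate 1. The interactions of drug and genotype, which also contain untreated WT, are given with all libraries only. The endothelial markers Pecam1, Cdh5 and Cldn5 were present in all 16 libraries. Of the fibroblast markers, Lum and Dpt were at 0 in all 16. Pdgfra, Col1a1, Col1a2 and Dcn were present in all 16, at up to 2.62, 113, 64.6 and 10.9 CPM. Summed astrocyte markers did not exceed 7.75 CPM, summed microglial markers 1.6 CPM, summed oligodendrocyte markers 2.04 CPM, summed neuronal markers 93.9 CPM and summed fibroblast markers 186 CPM. Summed mural markers were the highest of these lists, at up to 632 CPM, in WT+R. In bulk samples fewer cells of a type and less RNA per cell cannot be told apart. Libraries with the same replicate number deviated together from their group means in every comparison, as the processing section sets out, so values from the edgeR model with the replicate number as a term are given beside those of the model without it.

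In untreated WT cells, levels compared between genes per transcript length (TPM, transcripts per 1000000) ran from Mbtps1 at 58.6 ± 2.72 (SD, n = 3), which codes for the first SREBP protease, to Lss at 1.96 ± 0.379, which codes for lanosterol synthase. Fdps, the farnesyl pyrophosphate synthase gene, followed at 45.6 ± 8.79, and then the regulators Scap at 38.0 ± 2.76, Insig2 at 36.9 ± 7.92 and Insig1 at 34.9 ± 4.53 TPM. Ebp, a sterol isomerase gene, stood at 31.7 ± 1.07 and Msmo1, a sterol demethylation gene, at 29.5 ± 2.66 TPM. Most neighbours in this order overlapped in their 3 libraries. The exceptions were Mbtps1, which lay above Fdps in every library, and Cyp51, the lanosterol demethylase gene, at 4.32 ± 1.25 TPM, which lay below its neighbour Tm7sf2 at 6.74 ± 1.20. Regulators of SREBP2 thus held 4 of the 5 highest places, and Srebf2 itself stood 11th with 22.7 ± 0.412 TPM. Under propranolol Insig1 reached 196 ± 87.7 TPM in WT+P (n = 2) and 200.8 ± 64.4 in KO+P (n = 3), while Mbtps1 no longer led.

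**Figure D1:**
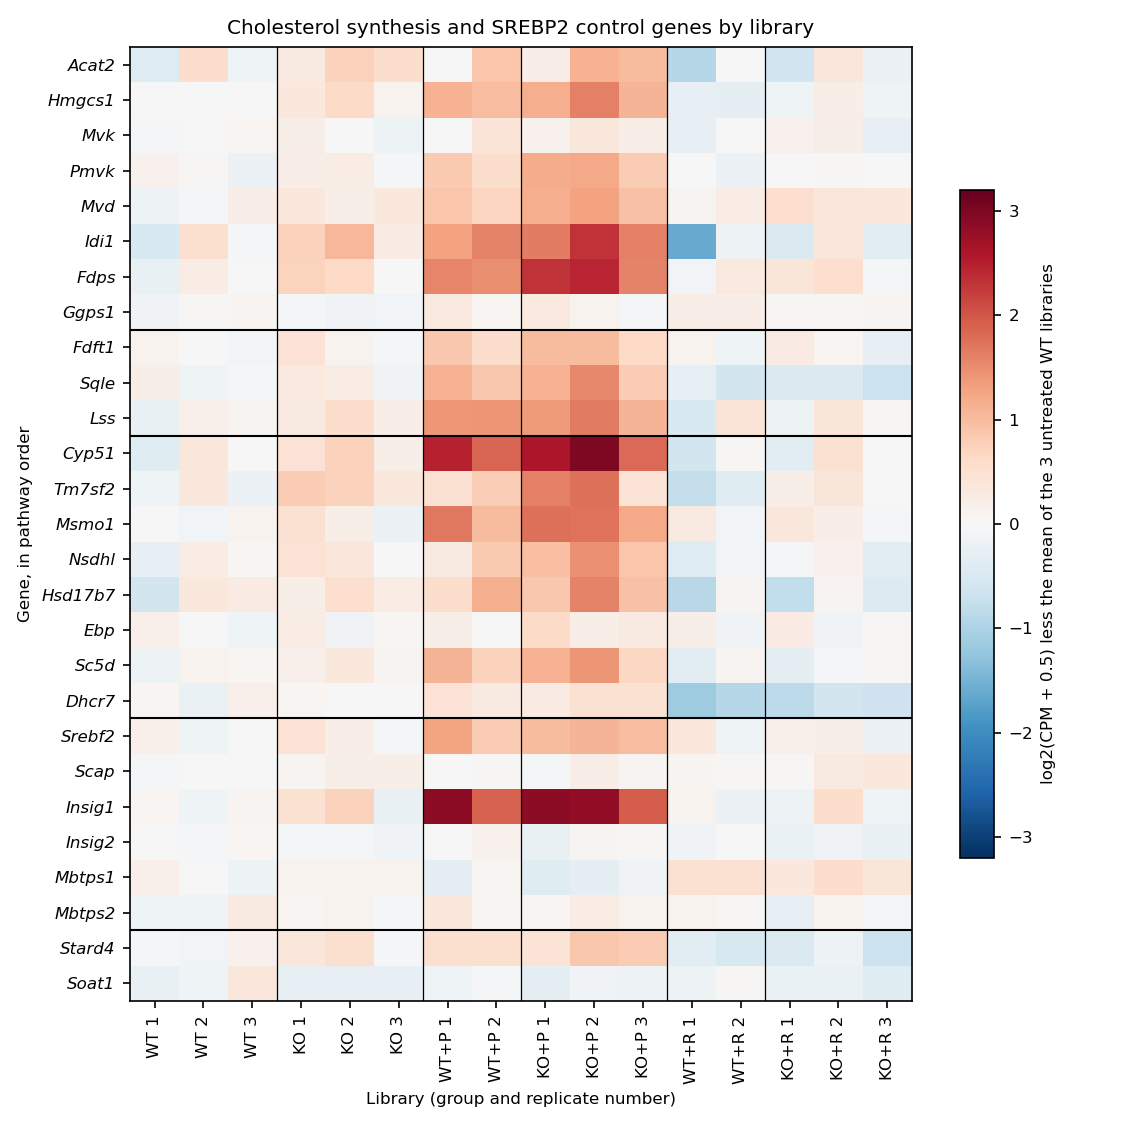
Level of each of the 27 genes (rows, in pathway order) in each of the 16 libraries (columns, by group and replicate number), as log2(CPM + 0.5) less the mean of the 3 untreated WT libraries. The 5 propranolol columns are red for most enzyme rows and for Srebf2 and Insig1, and the rows of Scap, Insig2, Mbtps2 and Soat1 stay pale. The 5 rapamycin columns are blue for Dhcr7 and paler for Stard4, which is close to white in KO+R replicate 2.

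The first question was how propranolol changed the pathway in cells that had lost Pdcd10. Most enzyme genes and the regulators Srebf2 and Insig1 were higher in KO+P than in untreated KO. In the model with the replicate number 11 of the 27 genes rose and none fell, while 0.142% of all tested genes were called. In the edgeR model without it 0 of 27 genes passed (background 0.00674%). There 19 had an unadjusted p under 0.05, as did 1870 of the 14838 tested genes. DESeq2 without the replicate number called 13 as higher, and among all tested genes 132 as higher and 25 as lower. The median log2 difference over the 27 genes was 0.81, beside -0.01 over all tested genes. In 16 of the 27 every KO+P library lay above every KO library, against 9.58% of all tested genes.

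In the SREBP2 control group Insig1, whose protein retains SREBP2 in the endoplasmic reticulum and which is itself a target of the factor, was measured at 77.1, 91.1 and 46.7 CPM in KO replicates 1 to 3 and at 399, 392 and 209.8 CPM in KO+P replicates 1 to 3. The groups did not overlap, and replicate 3 was lowest under both conditions. The log2 difference was 2.22 (SE 0.33, adjusted p = 0.0576), and 2.21 (SE 0.29, adjusted p = 0.0138) with the replicate number. Srebf2, the gene of the factor itself, went from 89.1, 74.7 and 61.3 CPM to 131, 137 and 127 CPM. Its groups were separate and its log2 difference was 0.81 (SE 0.17, adjusted p = 0.188), with an adjusted p of 0.0272 with the replicate number. Insig2, the sterol sensor Scap and the second protease gene Mbtps2 had log2 differences of 0.04 (SE 0.1), -0.08 (SE 0.1) and 0.11 (SE 0.14). Mbtps1 held 162 to 164 CPM in KO and 115, 123 and 139 CPM in KO+P, a log2 difference of -0.37 (SE 0.12) whose adjusted p was 0.314 without and 0.107 with the replicate number.

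Of the 8 mevalonate genes 4 rose in the model with the replicate number. Fdps had 47.2, 44.8 and 29.0 CPM in KO and 143, 158 and 87.4 CPM in KO+P, which did not overlap. Its log2 difference was 1.68 (SE 0.25, adjusted p = 0.0576), with an adjusted p of 0.00626 with the replicate number. Hmgcs1, the HMG-CoA synthase gene and the member with the strict element in its start region, went from 44.4, 53.5 and 37.6 to 78.3, 107 and 75.6 CPM. Every KO+P library lay above every KO library, at a log2 difference of 0.95 (SE 0.16, adjusted p = 0.07, and 0.0138 with the replicate number). Pmvk, the phosphomevalonate kinase gene, went from 18.1, 18.5 and 15.0 to 36.2, 36.9 and 27.9 CPM, a log2 difference of 0.97 (SE 0.14, adjusted p = 0.0576, and 0.00894 with the replicate number). Mvd, the diphosphomevalonate decarboxylase gene, went from 12.9, 11.6 and 12.9 to 23.3, 25.3 and 19.8 CPM, a log2 difference of 0.88 (SE 0.14, adjusted p = 0.0659, and 0.0409 with the replicate number). Both of these genes were again separate between groups. Idi1, the isopentenyl diphosphate isomerase gene, had a larger log2 difference of 1.19 but also a larger spread (SE 0.39), and missed the threshold with an adjusted p of 0.0521 with the replicate number. Acat2, which makes acetoacetyl-CoA, Mvk, the mevalonate kinase gene, and Ggps1, which makes the precursor for protein prenylation, had log2 differences of 0.29, 0.23 and 0.22, none past the threshold in either model.

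All 3 genes from squalene to lanosterol rose in the model with the replicate number. Sqle, the squalene epoxidase gene, had 25.2, 24.0 and 18.8 CPM in KO and 44.4, 59.8 and 36.3 CPM in KO+P. The groups were separate and the log2 difference was 1.05 (SE 0.19, adjusted p = 0.0993, and 0.0197 with the replicate number). Lss had 7.83, 9.72 and 7.51 against 17.2, 21.3 and 14.0 CPM, a log2 difference of 1.07 (SE 0.25, adjusted p = 0.202, and 0.0429 with the replicate number). Fdft1, the squalene synthase gene, differed by 0.71 on the log2 scale (SE 0.17, adjusted p = 0.204, and 0.0138 with the replicate number), and 24.8% of its exonic bases overlap Ctsb on the other strand.

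From lanosterol onwards 2 of 8 genes rose in the model with the replicate number. Cyp51 had 14.1, 16.9 and 11.5 CPM in KO and 62.7, 82.4 and 36.3 CPM in KO+P. Its lowest KO+P library was above its highest KO library, and the log2 difference was 2.09 (SE 0.34, adjusted p = 0.0649, and 0.0144 with the replicate number). Overlapping genes, among them Akap9, cover 28.3% of the exonic bases of Cyp51. Msmo1 had 41.2, 33.3 and 25.5 against 100, 98.1 and 68.3 CPM, a log2 difference of 1.41 (SE 0.22, adjusted p = 0.0576, and 0.00894 with the replicate number). The other 6 genes had log2 differences between 0.31, for Ebp, and 0.91, for the sterol desaturase gene Sc5d, and their adjusted p with the replicate number began at 0.0543, for Nsdhl, a sterol dehydrogenase gene. Among them Hsd17b7, the sterol ketoreductase gene, differed by 0.86 (SE 0.35), Tm7sf2, a sterol reductase gene, by 0.78 (SE 0.31) and Dhcr7, the gene of the 7-dehydrocholesterol reductase at the end of the pathway, by 0.40 (SE 0.12). Stard4, which carries sterol between membranes, and Soat1, which esterifies cholesterol for storage, differed by 0.41 and 0.08, and neither passed.

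**Figure D2:**
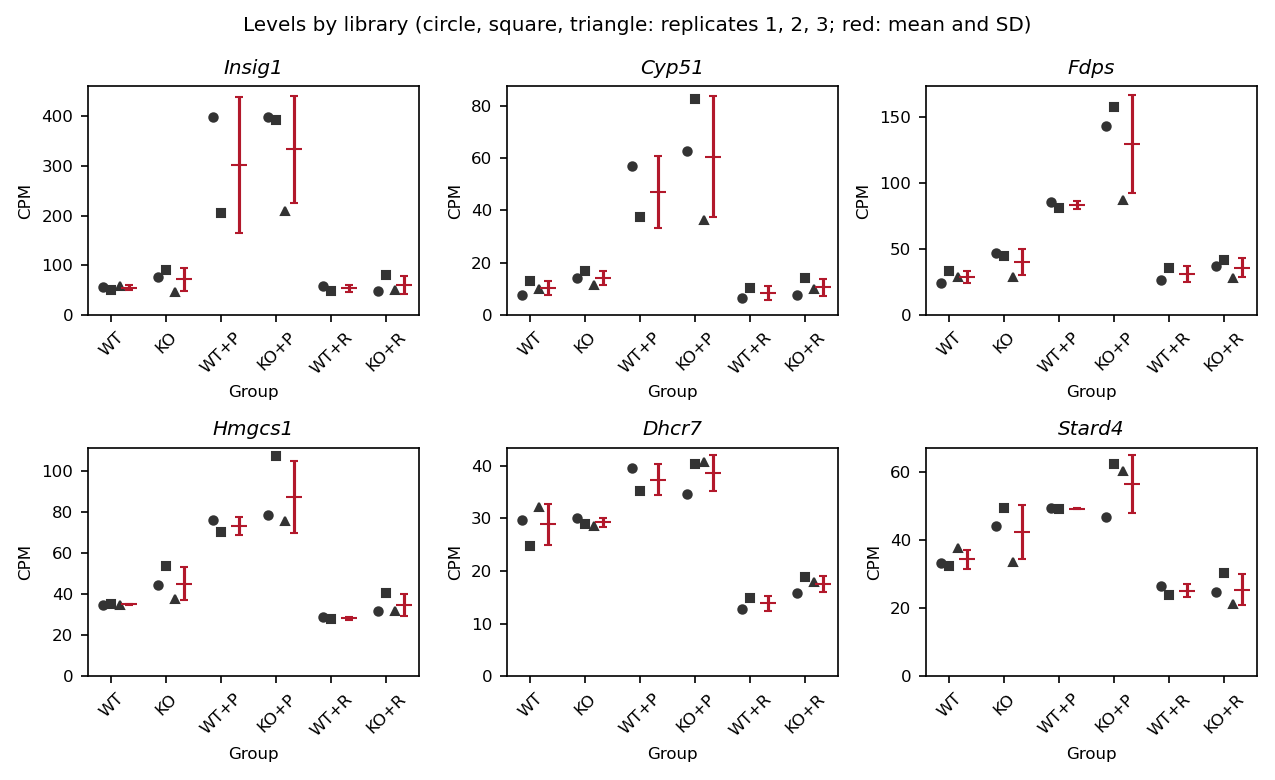
CPM of 6 genes in each library (y axis, starting at 0) by group (x axis), with circles, squares and triangles for replicates 1, 2 and 3 and, in red, the group mean and SD. Insig1, Cyp51, Fdps and Hmgcs1 stand apart in the WT+P and KO+P groups, with KO+P replicate 3 the lowest KO+P library for each of the 4, while Dhcr7 and Stard4 are lowest in WT+R and KO+R.

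These calls depended on single libraries. Without KO+P replicate 3, 13 genes were called in the model without the replicate number and 16 in the model with it. In the latter the count of 11 became 1, 2 and 0 without KO replicates 1, 2 and 3, and 7 and 0 without KO+P replicates 1 and 2. Insig1 had log2 differences of 1.99 to 2.47 and Hmgcs1 of 0.77 to 1.09 when each of the 6 libraries was left out. Between libraries of the same replicate number the log2 ratio of Insig1 was 2.37, 2.10 and 2.16 and that of Cyp51 2.12, 2.25 and 1.61 in replicates 1 to 3. Summed endothelial markers were 7380 to 10900 CPM in KO+P and 11500 to 12700 in KO, and 6880 to 10700 in WT+P and 11100 to 14400 in WT. Summed mural markers were 175 to 323 CPM in WT+P and 40.4 to 180 in WT, and 44.9 to 86.7 in KO+P and 33.3 to 61 in KO, and the part of both in these results was not tested.

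In WT cells the same comparison gave like sizes. With the replicate number 7 genes rose and none fell (background 0.0809%), and all 7 (Cyp51, Fdps, Hmgcs1, Insig1, Lss, Msmo1 and Srebf2) were among the 11 that rose in KO cells. Without it edgeR called 0 of 27 (background 0.00674%). There 17 had an unadjusted p under 0.05, as did 1464 of the 14838 tested genes. DESeq2 without the replicate number called 11 as higher, and among all tested genes 108 as higher and 9 as lower. The median log2 difference was 0.72, beside 0 over all tested genes, and in 18 of 27 both WT+P libraries lay above all 3 WT libraries, against 10.8% of all tested genes.

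Insig1 had 56.9, 49.4 and 58.1 CPM in WT and 398 and 204.8 CPM in WT+P, a log2 difference of 2.46 (SE 0.36, adjusted p = 0.0876, and 0.0363 with the replicate number). Cyp51 had 7.55, 13.0 and 10.1 against 56.8 and 37.4 CPM, a log2 difference of 2.20 (SE 0.36, adjusted p = 0.116, and 0.0363 with the replicate number). In both genes the WT+P libraries were far above all WT libraries, and replicate 1 was the higher. Fdps had 24.1, 33.8 and 29.0 against 85.6 and 81.3 CPM, at a log2 difference of 1.53 (SE 0.27, adjusted p = 0.116, and 0.0363 with the replicate number). Msmo1 had 28.8, 27.2 and 31.5 against 95.1 and 59.6 CPM, at 1.41 (SE 0.24, adjusted p = 0.116, and 0.0363 with the replicate number). These genes of the middle of the pathway were separate between the groups.

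Lss had 5.34, 7.14 and 6.77 CPM in WT and 17.5 and 17.9 in WT+P, a log2 difference of 1.46 (SE 0.28, adjusted p = 0.132, and 0.0363 with the replicate number). Hmgcs1 had 34.9, 35.3 and 34.8 against 76.1 and 70.2 CPM, at 1.06 (SE 0.17, adjusted p = 0.116, and 0.0363 with the replicate number). The 3 WT libraries of Hmgcs1 lay within 1 CPM of each other, so its separation from WT+P was wide for its spread. Srebf2 had 71.4, 58.6 and 63.5 against 154.9 and 113.6 CPM, at 1.06 (SE 0.19, adjusted p = 0.131, and 0.0366 with the replicate number). Scap, Insig2, Mbtps2, Soat1, Ebp, Ggps1 and Mvk had log2 differences between -0.13 and 0.23, and Mbtps1 one of -0.12 (SE 0.13).

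With the library labelled WT replicate 1 left out, 0 genes were called in either model, while Insig1 was at 398 and 204.8 CPM in WT+P beside 49.4 and 58.1 in the other two WT libraries. In the model with the replicate number the count of 7 also became 0 without WT replicate 2 or WT+P replicate 1, and 14 without WT+P replicate 2. In the model without it the count became 11 without WT+P replicate 2. Whether propranolol acted differently in the 2 genotypes was tested as an interaction, and 0 of the 27 genes passed in edgeR (background 0% in the models with and without the replicate number), with 0 at an unadjusted p under 0.05 and 0 called by DESeq2. The difference of log2 differences, KO less WT, ran from -0.39 to 0.28, and was -0.24 (SE 0.48) for Insig1 and -0.12 (SE 0.23) for Hmgcs1, so that for Insig1 a genotype difference of that size was not resolved from 0.

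**Figure D3:**
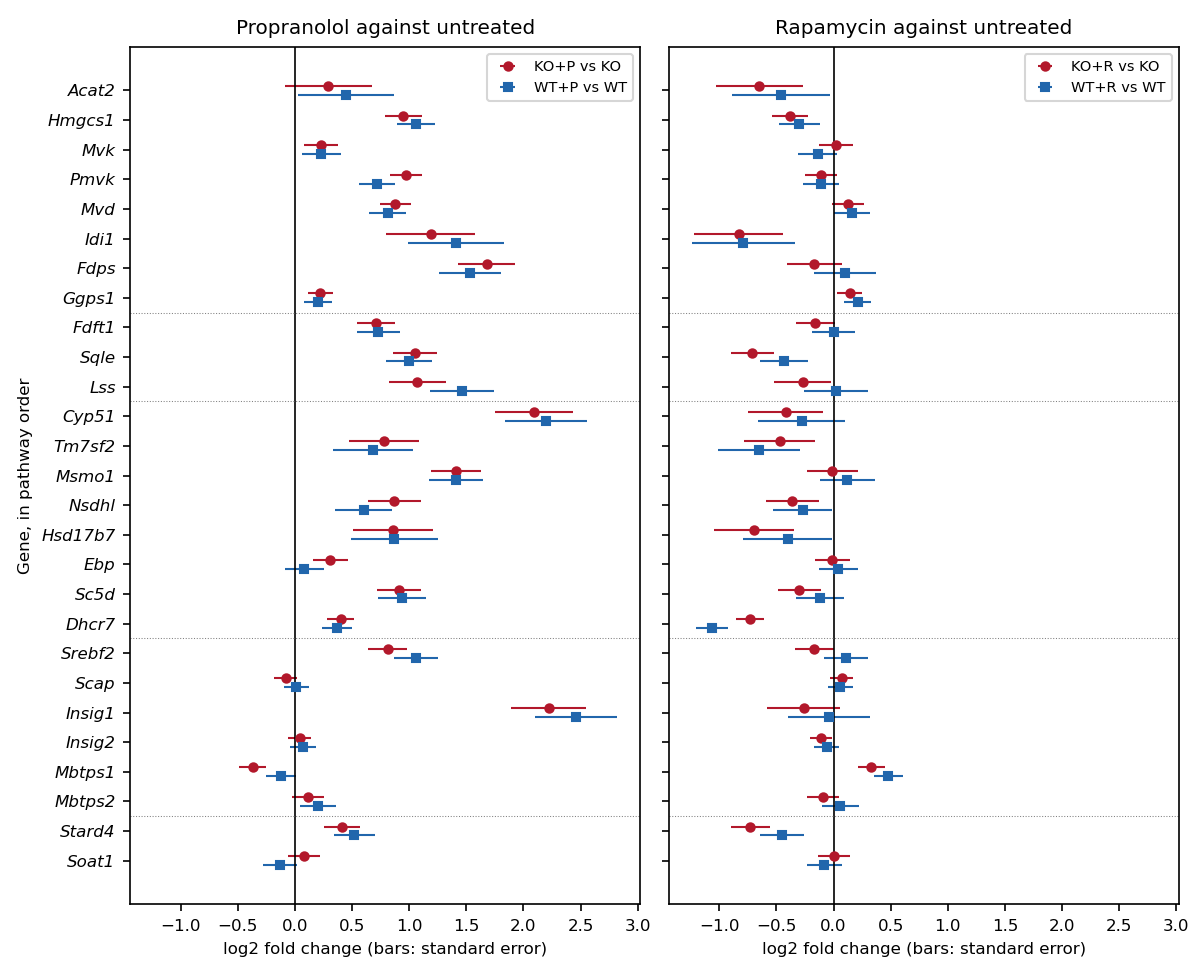
Log2 fold change (x axis) of each of the 27 genes (y axis, in pathway order) from the edgeR model without the replicate number, for propranolol (left) and rapamycin (right) against untreated cells, with red circles for KO, blue squares for WT and bars for the standard error. Under propranolol Insig1 (2.22 and 2.46) and Cyp51 (2.09 and 2.20) lie farthest to the right, and under rapamycin Dhcr7 (-0.73 and -1.06) lies to the left and Mbtps1 (0.33 and 0.48) to the right of 0 in both genotypes.

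Rapamycin gave a different picture, in which few genes were called and those that were called fell. In KO cells Dhcr7 and Stard4 fell in the model without the replicate number (2 of 27, background 1.51%), and with the replicate number Acat2, Idi1, Sqle and Hsd17b7 fell as well (6 of 27, background 4.98%). None rose. Over the 27 genes the median log2 difference was -0.17, beside -0.02 over all tested genes, and in 5 genes every KO+R library lay below every KO library, against 13.2% of all tested genes. In 2 genes, Ggps1 and Mbtps1, every KO+R library lay above every KO library, as in 1620 of the 14838 tested genes.

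Dhcr7 had 30.1, 29.0 and 28.6 CPM in KO and 15.9, 18.95 and 17.9 CPM in KO+R. The groups were separate, and the log2 difference was -0.73 (SE 0.12, adjusted p = 0.0126, and 0.00464 with the replicate number). The gene lies at chr7:143376740-143402149 on the plus strand of GRCm39, and no other annotated gene overlaps its exons. Stard4 had 44.3, 49.3 and 33.6 against 24.8, 30.5 and 21.3 CPM, also separate, at a log2 difference of -0.73 (SE 0.17, adjusted p = 0.0459, and 0.0192 with the replicate number). Sqle had 25.2, 24.0 and 18.8 CPM in KO and 14.5, 14.7 and 12.5 CPM in KO+R, at -0.71 (SE 0.19, adjusted p = 0.0923, and 0.0184 with the replicate number). Each of these 3 genes was lower in KO+R than in KO in every replicate number. So were Acat2, Idi1 and Hsd17b7, and genes that were not called, among them Hmgcs1 and Cyp51.

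The other three genes that passed with the replicate number spread widely between replicate numbers. Acat2 had 15.5, 21.5 and 19.1 CPM in KO and 8.15, 16.6 and 11.0 CPM in KO+R, at a log2 difference of -0.65 (SE 0.38, adjusted p = 0.538), and -0.70 (SE 0.15, adjusted p = 0.0153) with the replicate number. Idi1 had 27.3, 34.1 and 19.4 against 11.6, 20.9 and 12.7 CPM, at -0.83 (SE 0.39, adjusted p = 0.401), and -0.86 (SE 0.21, adjusted p = 0.0305) with the replicate number. Hsd17b7 had 9.96, 13.0 and 10.5 against 4.87, 9.31 and 6.37 CPM, at -0.70 (SE 0.35, adjusted p = 0.446), and -0.74 (SE 0.17, adjusted p = 0.0239) with the replicate number. In Acat2 and Idi1 the groups overlapped, and replicate 2 was highest under both conditions. Acat2 overlaps Tcp1 on the other strand over part of its exons.

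The remaining genes showed smaller differences. Insig1 was at 48.9, 80.7 and 49.6 CPM in KO+R, within or near the KO range, with a log2 difference of -0.26 (SE 0.32). Srebf2 differed by -0.17 (SE 0.17), Cyp51 by -0.42 (SE 0.33), Hmgcs1 by -0.38 (SE 0.16, adjusted p = 0.0889 with the replicate number), Fdps by -0.17 (SE 0.24) and Msmo1 by -0.01 (SE 0.22). Mbtps1 was higher, with 191, 224 and 198 CPM in KO+R beside 162, 164 and 163 in KO, yet its adjusted p was 0.243 without and 0.11 with the replicate number. Summed mural markers were 64.8 to 172 CPM in KO+R and 33.3 to 61 in KO, and their part in these results was not tested. The 2 calls without the replicate number became 0 or 1 when any 1 of the 6 libraries was left out, with Dhcr7 at log2 differences of -0.77 to -0.64 and Stard4 at -0.88 to -0.60 throughout. The 0 came without KO replicate 1, KO+R replicate 1 or KO+R replicate 3. With the replicate number 1 gene was called without KO replicate 1, KO+R replicate 1 or KO+R replicate 3, and 3 genes without each of the others.

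In WT cells Dhcr7 fell under rapamycin (1 of 27, background 1.4%), and Idi1 fell as well with the replicate number (2 of 27, background 4.56%). Both were among the 6 genes that fell in KO cells. Dhcr7 had 29.7, 24.7 and 32.2 CPM in WT and 12.8 and 14.9 CPM in WT+R, at a log2 difference of -1.06 (SE 0.14, adjusted p = 0.00507, and 0.00242 with the replicate number). Idi1 had 11.4, 23.2 and 15.8 CPM in WT and 4.97 and 14.4 in WT+R, groups that overlapped, at -0.79 (SE 0.45, adjusted p = 0.522), and -0.98 (SE 0.25, adjusted p = 0.0412) with the replicate number. In the model without it the log2 difference of Idi1 was -0.22 without WT+R replicate 1 and -1.76 without WT+R replicate 2. Over the 27 genes the median log2 difference was -0.08, beside -0.01 over all tested genes, and in 5 genes both WT+R libraries lay below all WT libraries, against 14.7% of all tested genes. In 3 genes, Ggps1, Scap and Mbtps1, both WT+R libraries lay above all WT libraries, as in 2072 of the 14838 tested genes. Stard4 differed by -0.45 (SE 0.19) and Mbtps1 by 0.48 (SE 0.13, adjusted p = 0.096, and 0.0581 with the replicate number). Without the library labelled WT replicate 1 the counts were 1 and 2, and without WT+R replicate 1 they were 0 and 0. With the replicate number the count was 1 without WT replicate 2 or 3. Summed mural markers, mostly Acta2, were 565 to 632 CPM in WT+R and 40.4 to 180 in WT, summed endothelial markers were 9870 to 10600 CPM in WT+R and 11100 to 14400 in WT, and their part in these results was not tested.

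The interaction of rapamycin with genotype gave 0 of 27 genes in edgeR, with 0 at an unadjusted p under 0.05 and 0 by DESeq2, and the background was 0% with and without the replicate number. The difference of log2 differences ran from -0.30 to 0.32, the latter for Dhcr7 (SE 0.18).

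**Figure D4:**
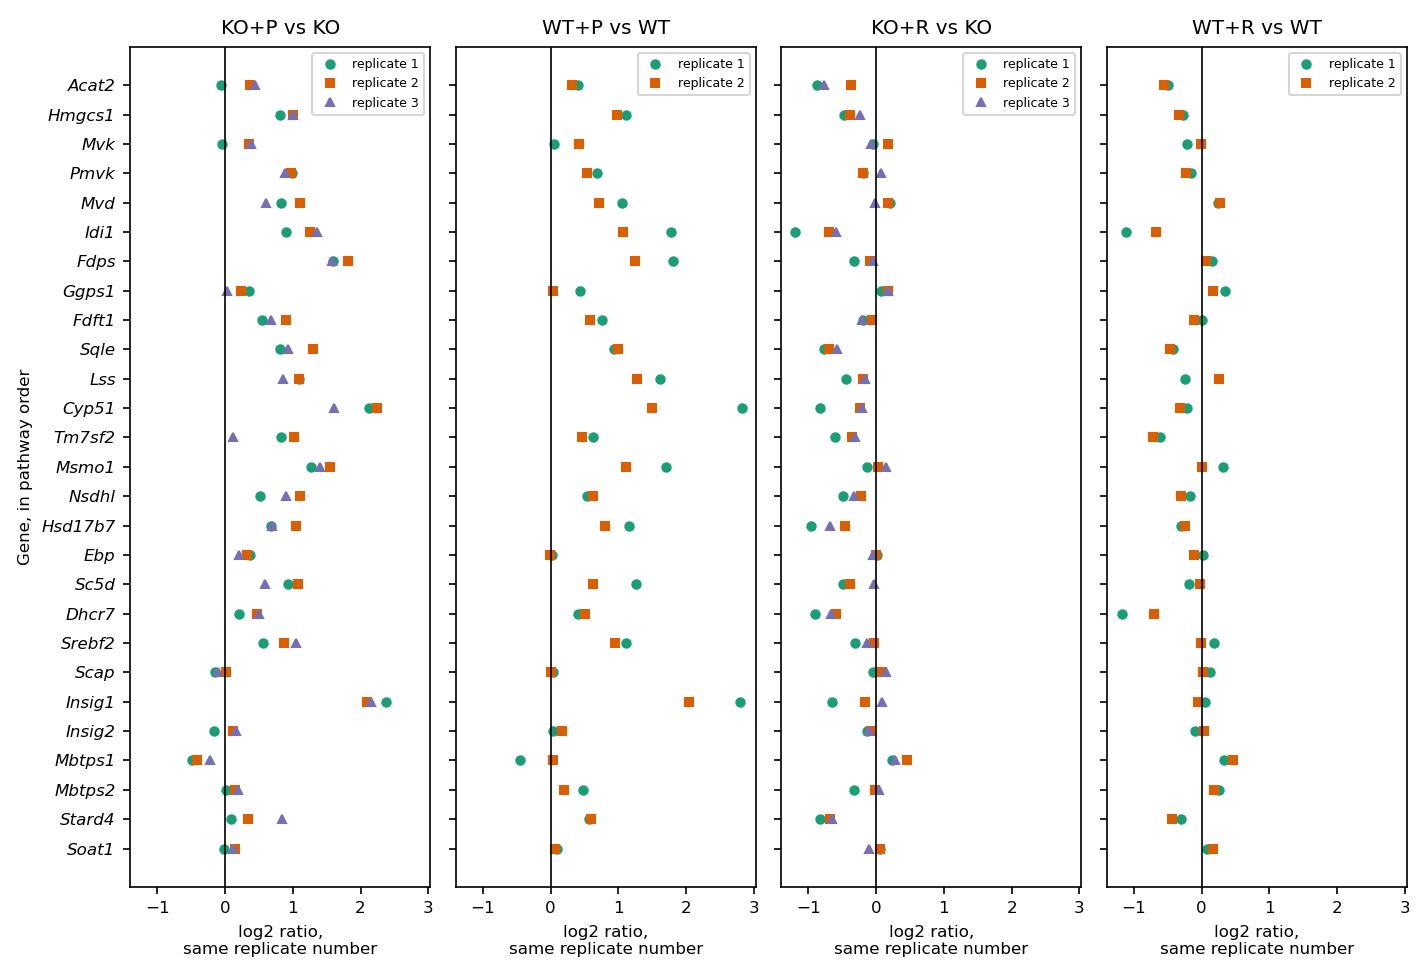
Log2 ratio of CPM between libraries of the same replicate number (x axis) for each of the 27 genes (y axis), in 4 panels for propranolol and rapamycin against untreated KO and WT cells, with 1 symbol per replicate number. Insig1, Cyp51, Fdps, Msmo1 and Hmgcs1 are among the genes to the right of 0 in every replicate under propranolol. Dhcr7, Stard4, Sqle and Idi1 are among those to the left of 0 in every replicate under rapamycin.

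Most of the 27 genes passed in the contrast between the 2 drugs, which were given at different concentrations and are compared here side by side. Between KO+R and KO+P, 18 of the 27 genes were lower in KO+R and 1, Mbtps1, was higher in the model without the replicate number (background 4.08%), and 19 were lower and 1 higher with it (background 9.62%). The median log2 difference was -1.13, beside -0.02 over all tested genes, and in 18 genes every KO+R library lay below every KO+P library, against 13.9% of all tested genes. By role, 5 of 8 mevalonate genes, all 3 genes from squalene to lanosterol, 7 of 8 from lanosterol onwards, Srebf2 and Insig1, and Stard4 were lower in the model without the replicate number. Mvk, Ggps1, Scap, Insig2, Mbtps2 and Soat1 did not pass in either model. Ebp passed the adjusted p with the replicate number (0.028) at a log2 difference of -0.31, short of the 1.5-fold threshold.

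The gene with the smallest p was Sqle, with 44.4, 59.8 and 36.3 CPM in KO+P and 14.5, 14.7 and 12.5 in KO+R, at a log2 difference of -1.75 (SE 0.19, adjusted p = 0.000778). Dhcr7 had 34.6, 40.3 and 40.7 CPM in KO+P and 15.9, 18.95 and 17.9 in KO+R, at -1.13 (SE 0.12, adjusted p = 0.000778). For both genes the lowest KO+P library exceeded the highest KO+R library. Hmgcs1, with 78.3, 107 and 75.6 against 31.7, 40.7 and 31.7 CPM, differed by -1.33 (SE 0.16, adjusted p = 0.00142). Pmvk, with 36.2, 36.9 and 27.9 against 15.8, 16.2 and 15.8 CPM, differed by -1.08 (SE 0.14, adjusted p = 0.00198). Fdps, with 143, 158 and 87.4 against 37.5, 42.0 and 28.1 CPM, differed by -1.85 (SE 0.25, adjusted p = 0.00209). The 3 mevalonate genes were separate between the drugs in all libraries.

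Insig1, with 399, 392 and 209.8 CPM in KO+P and 48.9, 80.7 and 49.6 in KO+R, differed by -2.48 (SE 0.34, adjusted p = 0.00211). Cyp51, with 62.7, 82.4 and 36.3 against 7.68, 14.2 and 9.85 CPM, differed by -2.51 (SE 0.34, adjusted p = 0.00236). These were the 2 largest log2 differences among the 27 genes in this comparison. Stard4, with 46.8, 62.4 and 60.3 against 24.8, 30.5 and 21.3 CPM, differed by -1.15 (SE 0.17, adjusted p = 0.00323). Msmo1, with 100, 98.1 and 68.3 against 37.4, 33.9 and 28.1 CPM, differed by -1.42 (SE 0.22, adjusted p = 0.00451). Sc5d, with 51.3, 63.3 and 38.0 against 18.8, 22.8 and 24.5 CPM, differed by -1.21 (SE 0.19, adjusted p = 0.00458). Mbtps1 went the other way, with 115, 123 and 139 CPM in KO+P and 191, 224 and 198 in KO+R, at 0.70 (SE 0.12, adjusted p = 0.00733). With the replicate number the count was 20 when any 1 of the 6 libraries was left out. Without it the count was 12 without KO+P replicate 2 or KO+R replicate 3.

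In WT cells 12 genes were lower in WT+R than in WT+P (background 1.31%), all of them among those lower in KO+R than in KO+P, and with the replicate number 18 were lower and Mbtps1 was higher (background 4.93%). The median log2 difference was -0.95, beside -0.03 over all tested genes, and in 20 genes both WT+R libraries lay below both WT+P libraries, against 19.4% of all tested genes. With 2 libraries in each group, the count without the replicate number was 1, 0 and 3 without WT+P replicate 1, WT+R replicate 1 and WT+R replicate 2. With it the counts were 8, 5 and 12.

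Dhcr7 had 39.4 and 35.2 CPM in WT+P and 12.8 and 14.9 in WT+R, at a log2 difference of -1.43 (SE 0.15, adjusted p = 0.00301). Hmgcs1, with 76.1 and 70.2 against 28.9 and 27.8 CPM, differed by -1.37 (SE 0.2, adjusted p = 0.0081). Sqle, with 44.5 and 37.2 against 17.0 and 13.3 CPM, differed by -1.43 (SE 0.23, adjusted p = 0.0132). The 3 enzyme genes had close values within each drug. Insig1, with 398 and 204.8 against 58.9 and 47.8 CPM, differed by -2.50 (SE 0.41, adjusted p = 0.0145). Cyp51, with 56.8 and 37.4 against 6.45 and 10.4 CPM, differed by -2.49 (SE 0.42, adjusted p = 0.0154). In these genes the 2 WT+P libraries differed from each other more than in the enzyme genes named before.

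Msmo1, with 95.1 and 59.6 CPM in WT+P and 35.8 and 27.5 in WT+R, differed by -1.29 (SE 0.27, adjusted p = 0.0412). Stard4, with 49.4 and 49.2 against 26.6 and 23.9 CPM, differed by -0.97 (SE 0.2, adjusted p = 0.0424). Pmvk, with 28.4 and 23.4 against 15.5 and 13.6 CPM, differed by -0.83 (SE 0.18, adjusted p = 0.0424). All 3 were separate between the drugs. Fdps, with 85.6 and 81.3 against 26.8 and 35.5 CPM, differed by -1.42 (SE 0.3, adjusted p = 0.0426). Lss, with 17.5 and 17.9 against 4.43 and 8.59 CPM, differed by -1.44 (SE 0.31, adjusted p = 0.0456). Sc5d and Idi1 were the other two genes past the threshold without the replicate number, and Idi1 differed by -2.20 with all libraries, -1.62 without WT+R replicate 1 and -3.16 without WT+R replicate 2. Because the propranolol and rapamycin comparisons with untreated cells share those cells, and each drug group enters 2 comparisons, their values are given side by side and not as independent results.

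Between untreated KO and WT cells edgeR called no gene of the pathway. In KO against WT 0 of 27 genes were called without (background 0.00674%) or with the replicate number (background 0.182%). An unadjusted p under 0.05 was found for 2 and 6 genes, beside 900 and 2047 of the 14838 tested genes. DESeq2 called 0 without and 1 with the replicate number. Among all tested genes DESeq2 called 37 higher and 25 lower without the replicate number, and 230 higher and 159 lower with it. The log2 difference was above 0 in 24 of the 27 genes, with a median of 0.19, beside -0.01 over all tested genes, and ran from -0.30, for Soat1, to 0.68, for Idi1. In 4 genes all KO libraries lay above all WT libraries, against 6.69% of all tested genes. Hmgcs1 was one of them, with 44.4, 53.5 and 37.6 CPM in KO and 34.9, 35.3 and 34.8 in WT, at a log2 difference of 0.37 (SE 0.16, adjusted p = 0.763, and 0.231 with the replicate number). Without the library labelled WT replicate 1 the count was also 0.

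Under the drugs edgeR called no gene between the genotypes either. Between KO+P and WT+P 0 of 27 genes were called without (background 0%) or with the replicate number (background 0.0876%). An unadjusted p under 0.05 was found for 3 and 9 genes, beside 918 and 2047 of the 14838 tested genes. DESeq2 called 0 without and 3 with the replicate number. Among all tested genes DESeq2 called 22 higher and 37 lower without the replicate number, and 117 higher and 141 lower with it. The median log2 difference was 0.20, beside -0.02 over all tested genes, and in 5 genes all KO+P libraries lay above both WT+P libraries, against 7.8% of all tested genes. Fdps, with 143, 158 and 87.4 CPM in KO+P and 85.6 and 81.3 in WT+P, differed by 0.64 (SE 0.28, adjusted p = 0.783). Between KO+R and WT+R 0 of 27 were called (background 0%, and 0.0944% with the replicate number). An unadjusted p under 0.05 was found for 2 and 4 genes, beside 849 and 1585 of the 14838 tested genes. DESeq2 called 0 without and 2 with the replicate number. Among all tested genes DESeq2 called 41 higher and 32 lower without the replicate number, and 156 higher and 145 lower with it. In 5 genes all KO+R libraries lay above both WT+R libraries, against 9.43% of all tested genes, and Dhcr7, with 15.9, 18.95 and 17.9 CPM in KO+R and 12.8 and 14.9 in WT+R, differed by 0.34 (SE 0.14, adjusted p = 0.807).

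Other genes of lipid metabolism were taken as 4 further lists by name. Of 11 genes of SREBP1 and fatty acid synthesis, which are read by the sister factor SREBP1, 1 rose under propranolol in each genotype with the replicate number, Fasn, the fatty acid synthase gene. It went from 168, 239 and 188 CPM in KO to 275, 354 and 297 in KO+P, at a log2 difference of 0.65 (SE 0.09, adjusted p = 0.0158 with the replicate number), and from 112, 164 and 140.1 CPM in WT to 229 and 294 in WT+P, at 0.91 (SE 0.10, adjusted p = 0.0204 with the replicate number). The whole list had median log2 differences of 0.70 and 0.92. These edgeR counts read against edgeR backgrounds of 0.142% and 0.0809%. DESeq2 with the replicate number called 6 of the 11 in each genotype. Among all 14838 tested genes it called 418 higher and 506 lower in KO+P, and 129 higher and 12 lower in WT+P. Without the replicate number edgeR called none under either drug. DESeq2 without it called 1 under propranolol in KO cells, and 2 under propranolol and 1 under rapamycin in WT cells. Among all tested genes this model called 132 higher and 25 lower in KO+P, 108 and 9 in WT+P, and 237 and 311 in WT+R.

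Under rapamycin 2 of the 11 fell in each genotype with the replicate number, Elovl6, a fatty acid elongase gene, and Scd2, a desaturase gene, against backgrounds of 4.98% and 4.56%. DESeq2 with the replicate number called 2 in KO and 3 in WT cells. Among all 14838 tested genes it called 405 higher and 706 lower in KO+R, and 428 higher and 542 lower in WT+R. Scd2 went from 374, 448 and 269 CPM in KO to 81.9, 252 and 123 in KO+R, at -1.37 (SE 0.30, adjusted p = 0.0189 with the replicate number). Between the drugs Scd2, Elovl6 and Fads2, another desaturase gene, were lower in KO+R than in KO+P at log2 differences of -2.51, -1.93 and -1.73 (adjusted p = 0.00803, 0.00796 and 0.0179), and in WT cells at -3.64, -2.34 and -2.02 (adjusted p = 0.0102, 0.018 and 0.0474).

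Of 22 genes of sterol sensing, uptake and efflux, none was called under propranolol in either edgeR model. DESeq2 with the replicate number called 1, which was lower in KO+P, as were 506 of the 14838 tested genes. In edgeR without the replicate number 1 fell under rapamycin in each genotype, Vldlr, a lipoprotein receptor gene, against backgrounds of 1.51% in KO and 1.4% in WT cells. It had 41.9, 26.3 and 23.9 CPM in KO and 9.27, 12.0 and 11.4 in KO+R, at -1.49 (SE 0.33, adjusted p = 0.0402), and 78.7, 35.5 and 76.1 CPM in WT and 19.1 and 13.1 in WT+R, at -1.98 (SE 0.38, adjusted p = 0.0254). Gramd1b, which moves cholesterol from the cell membrane to the endoplasmic reticulum, fell as well with the replicate number in both genotypes. Of 10 genes of the isoprenoid branches and 5 electron donors of the pathway's oxidations, edgeR called none in the 4 drug comparisons with untreated cells in either model. DESeq2 with the replicate number called 1 isoprenoid gene as higher in KO+P than in KO and 1 electron donor as lower in WT+R than in WT. Among all 14838 tested genes it called 418 as higher in KO+P than in KO and 542 as lower in WT+R than in WT. Between the drugs Cyb5b, which codes for an outer mitochondrial cytochrome b5, was lower in rapamycin at -0.56 (adjusted p = 0.0114) in KO and -0.69 (adjusted p = 0.022) in WT, of which only the latter exceeded 1.5-fold.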

How the data were processed

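RNA of cultured mouse brain microvascular endothelial cells was sequenced in 16 libraries, with group and replicate number taken from the sample labels. The submitters' processing notes name Trim Galore 0.6.7, Salmon 1.5.2 and the build GRCm39, and the transcript files of the authors have the layout of Salmon output. The deposited values used here are estimated counts and TPM per transcript. Both were summed per gene by transcript ID with GENCODE vM39 (GRCm39), which left 0.395 to 0.566% of counts without a gene, and summed counts were rounded to whole numbers. Libraries were made from poly(A) RNA without strand, so reads of overlapping genes on the 2 strands cannot be told apart. The sources name an Ensembl release for an alignment with STAR and counting with HTSeq, a route whose counts were not used here, and give no release for the Salmon index.

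Genes passing edgeR's default filter on low counts (14838) were scaled by TMM and fitted with edgeR 4.0.16 (R 4.3.3) quasi-likelihood over all 6 groups, with Benjamini-Hochberg adjustment over all tested genes. A gene was called at an adjusted p under 0.05 and a change above 1.5-fold, and an interaction at the adjusted p alone. All tests were two-sided. CPM are TMM-scaled. Biological variation between libraries came to a coefficient of 32.3%, falling to 19% once the replicate number entered the model.

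The replicate numbers come from the labels, which do not say that a number marks a shared culture. The deviations of same-numbered libraries from their group means correlated at 0.19 or more in every pair of every comparison (0.31 to 0.58 for KO+P against KO, 0.41 to 0.62 for KO+R against KO, 0.49 to 0.56 for WT+P against WT and 0.60 to 0.69 for WT+R against WT), so the numbers were treated as pairing the samples.

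The 27 genes and the other lists were chosen with earlier results of these data known. All 27 genes are named, with full statistics for those past the adjusted p in either model, or for the 10 with the smallest p where more passed. The scripts were tested on simulated data. Alternatives were DESeq2 1.42.0, the replicate number as a term, DESeq2's scaling, no filter, an effective length offset, fits of only the groups compared, and leaving out each library.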

Additional observations from a re-analysis of the deposited data

How the results depend on the processing

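Counts of the 27 genes called without the replicate number moved as follows. With the replicate block the counts were 11 (KO+P against KO), 6 (KO+R against KO), 7 (WT+P against WT), 2 (WT+R against WT) and 19 (WT+R against WT+P), and it moved no other count by over 1.5 times. DESeq2 gave 13 and 11 for propranolol in KO and WT cells. DESeq2 with the replicate block gave 1 (KO against WT), 16 (KO+P against KO), 6 (KO+R against KO), 14 (WT+P against WT), 3 (WT+R against WT), 20 (WT+R against WT+P), 3 (KO+P against WT+P) and 2 (KO+R against WT+R). Of all 14838 tested genes DESeq2 with the block called 512 higher and 718 lower for WT+R against WT+P. Its counts over all tested genes for the other comparisons stand beside them above. Without the filter propranolol gave 7 and 7. DESeq2's scaling (RLE) gave 1 for KO+R against KO, and the effective length offset 1 for that comparison and 5 for WT+R against WT+P. Fits of only the groups compared gave 1 (KO+R against KO), 0 (WT+R against WT), 10 (KO+R against KO+P) and 0 (WT+R against WT+P). When WT replicate 1 was left out of the blocked model, WT+R against WT gave 2.

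Leaving out 1 library at a time gave 0 to 13 for KO+P against KO, 0 to 1 for KO+R against KO, 0 to 11 for WT+P against WT, 0 to 1 for WT+R against WT, 12 to 19 for KO+R against KO+P and 0 to 12 for WT+R against WT+P. The same within the model with the replicate number, added after seeing the data, gave 0 to 16, 1 to 3, 0 to 14, 0 to 2, 20 to 20 and 5 to 19 in that order. Where this left 1 library in a group, that library was assumed to vary like the other groups. Among gene values with an adjusted p under 0.05 in either edgeR model, none turned its direction under the alternatives run, and the directions of the other gene values were not followed. The causes of these shifts were not tested, and 2 or 3 libraries a group limit every count.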

Other observations

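Abca1 and Abcg1, which export cholesterol from cells, were picked from the list of sterol sensing, uptake and efflux after their values were seen. Abca1 had 254, 162 and 253 CPM in KO and 45.7, 31.8 and 205 CPM in KO+P, so that replicates 1 and 2 lay below all KO libraries and replicate 3 did not. Abcg1 had 134, 153 and 148 CPM in KO and 24.98, 38.6 and 128 CPM in KO+P, with replicate 3 again nearest to the untreated cells. In WT+P replicate 1 was low for both genes, with 60.3 CPM of Abca1 and 13.4 CPM of Abcg1, and replicate 2 held 159 and 114 CPM, beside 165 to 260 CPM of Abca1 and 63.1 to 119 CPM of Abcg1 in WT. Neither gene passed the threshold under propranolol in either edgeR model, while DESeq2 with the replicate number called 1 gene of that list as lower in KO+P. The log2 difference of Abca1 in KO cells was -1.25 (SE 0.58, adjusted p = 0.395), and -1.59 (SE 0.48, adjusted p = 0.102) with the replicate number.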
